A study of Mus musculus with 35 samples.

Results

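The genes followed here, 7 in number, belong to extracellular NAD and adenosine metabolism: Cd38, Bst1, Nampt, Entpd1, Nt5e, Adora2a and Adora2b. They were chosen by name, and their Ensembl identifiers picked out 7 of the 53379 rows of the count table. All 7 were present. The libraries came from myeloid-derived suppressor cells (MDSC) and from whole tumors of 8 female C57BL/6 mice that carried orthotopic T110299 pancreatic tumors. T110299 is a mouse pancreatic tumor cell line, so every tumor here grew from implanted cells of 1 line in a host with intact genes. Treated mice received 50 µg of poly(I:C) complexed with polyethylenimine, called poly(I:C)c, into a vein on days 18 and 20, and the controls, labelled untreated, received glucose by the sample labels, whereas the study's text also describes them as left untreated. Polymorphonuclear MDSC (PMN-MDSC, CD11b+ Ly6Clo Ly6G+) and monocytic MDSC (M-MDSC, CD11b+ Ly6Chi Ly6G-) were enriched on CD11b beads and then sorted from spleen and tumor. Each of the 8 MDSC groups held 4 libraries, except treated splenic PMN-MDSC with 3 and treated tumor M-MDSC with 3, and the last group was 4 whole tumors of untreated mice, called bulk tumor. The methods of the study describe the mice as young adults matched for age and sex.

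CD38 is a surface enzyme that cleaves NAD into ADP-ribose and cyclic ADP-ribose, and BST1 (CD157) is its close relative on myeloid cells. NAMPT makes nicotinamide mononucleotide from nicotinamide and sets the pace of NAD salvage, which refills the pool that CD38 drains. On the adenosine side, ENTPD1 (CD39) takes extracellular ATP and ADP to AMP, NT5E (CD73) takes AMP to adenosine, and the receptors encoded by Adora2a and Adora2b pass adenosine on as cyclic AMP, a signal known to restrain immune cells. CD38, together with a second nucleotidase and CD73, also opens a route from NAD to adenosine, which links the enzymes of NAD to those of adenosine.

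Promoter windows of 250 bases before and 50 after the RefSeq start (GRCm38.p6) matched 5 of the 7 genes, all but Bst1 and Adora2a. Of these windows, 3 are shown, all on the plus strand: Cd38 and Nt5e, because their transcripts moved in opposite directions in treated tumor M-MDSC, and Nampt, because it alone held one of the motifs searched. They lie at chr5:43868559-43868858 (Cd38), chr9:88327359-88327658 (Nt5e) and chr12:32820085-32820384 (Nampt). Each window lies within the GENCODE gene, which starts further upstream. The capitals in Nampt mark the match.
Cd38: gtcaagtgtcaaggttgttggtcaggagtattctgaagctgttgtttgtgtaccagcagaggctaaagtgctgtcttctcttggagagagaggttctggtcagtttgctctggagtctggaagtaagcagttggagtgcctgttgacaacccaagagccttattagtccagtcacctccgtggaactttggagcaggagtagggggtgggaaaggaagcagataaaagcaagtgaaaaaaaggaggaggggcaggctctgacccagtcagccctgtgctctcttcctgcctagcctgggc
Nt5e: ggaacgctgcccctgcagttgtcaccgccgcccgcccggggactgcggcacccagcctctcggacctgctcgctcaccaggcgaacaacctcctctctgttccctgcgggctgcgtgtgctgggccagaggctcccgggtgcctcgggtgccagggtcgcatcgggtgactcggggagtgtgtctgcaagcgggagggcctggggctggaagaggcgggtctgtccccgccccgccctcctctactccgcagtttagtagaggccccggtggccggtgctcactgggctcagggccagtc
Nampt: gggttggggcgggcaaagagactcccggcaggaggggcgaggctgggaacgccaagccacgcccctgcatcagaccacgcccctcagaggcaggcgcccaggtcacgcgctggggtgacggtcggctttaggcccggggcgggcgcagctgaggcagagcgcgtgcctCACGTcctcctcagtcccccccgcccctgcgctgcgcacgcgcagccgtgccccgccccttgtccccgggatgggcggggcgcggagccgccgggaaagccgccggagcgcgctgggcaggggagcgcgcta

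The motifs were searched on both strands and do not overlap one another. The interferon-stimulated response element core GAAANNGAA, which 8.56% of 32851 windows of this length held, matched in none of the 5 genes' windows. The GAS element TTCNNNGAA, held by 8.3% of all windows, matched in none of them either. The hypoxia response core ACGTG, held by 19.6%, matched once, in Nampt at -82 from the start and read as CACGT. These are descriptions of letters in short windows.

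MDSC libraries held 793070 to 4357105 counts and bulk tumor libraries 3771590 to 8886115. A further M-MDSC library from a treated tumor held 10 counts and was left out. Levels are given as CPM, counts scaled to a common library size by TMM over all libraries, and comparisons between genes as FPKM, which is CPM per kilobase of exon. Library-specific values are listed from low to high, and libraries are numbered within a group in the order of the table. The columns of the table carry no mouse number, so libraries of the same mouse were not paired in the fits and p-values measure the spread between libraries, and in bulk or sorted RNA fewer cells and less RNA per cell cannot be told apart.

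The sorted cells were checked against marker lists, each given as a summed CPM. Splenic PMN-MDSC held 14680 to 42010 CPM of 7 neutrophil markers, led by Csf3r or S100a9, and M-MDSC held 176 to 2176 CPM. PMN-MDSC from tumors held only 1379 to 9414 CPM of these markers, beside 3318 to 5673 CPM of 7 macrophage markers, which were at 129 to 1276 CPM in splenic PMN-MDSC. Monocyte markers, 7 in number, summed in untreated spleen to 2836 to 3169 CPM in M-MDSC and 1457 to 2079 CPM in PMN-MDSC, and in untreated tumor to 4392 to 5536 and 2777 to 3465 CPM. With treatment the cell types overlapped in these markers in both organs. In library 4 of treated splenic M-MDSC, 7 B cell markers summed to 11780 CPM against 117 to 367 CPM in the other 3 libraries, and plasma cell markers to 7500 against 322 to 442 CPM. In library 2 of treated tumor M-MDSC, macrophage markers reached 8294 CPM against 1975 and 3936 CPM in the other two. Called treatment effects of named genes in these 2 groups are given with and without these libraries.

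Marker sums also moved with the comparisons. Of 13 lists, 8 did not overlap between untreated and treated splenic PMN-MDSC, where 26.7% of all 7261 genes tested did not overlap. Neutrophil markers (14680 to 33580 CPM untreated, 36340 to 42010 CPM treated) and monocyte markers (1457 to 2079 and 2137 to 3130 CPM) were higher with treatment there, and macrophage, dendritic cell, T cell, epithelial, endothelial and erythroid markers were lower. In tumor PMN-MDSC 3 lists were apart: dendritic cell markers (323 to 376 CPM untreated, 109 to 322 CPM treated) and B cell markers (48.1 to 99.1 and 17.6 to 43.8 CPM) were lower with treatment, and platelet markers (40.4 to 70.3 and 70.8 to 134.5 CPM) were higher. In splenic M-MDSC 4 lists were apart, with NK cell, fibroblast and endothelial markers higher and erythroid markers lower, and in tumor M-MDSC 4, with dendritic cell and endothelial markers higher and monocyte and epithelial markers lower. Between untreated spleen and tumor, 9 lists were apart in PMN-MDSC, among them neutrophil markers (1379 to 3823 CPM in tumor) and macrophage markers (443 to 1276 CPM in spleen, 3361 to 4164 CPM in tumor), and 8 in M-MDSC. The part of these shifts in the results on treatment and organ was not tested.

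Per length of transcript, the ectoenzyme make-up differed between the cell types. Untreated splenic PMN-MDSC carried mostly Entpd1, at 135 ± 35.9 FPKM (SD, n = 4), and Bst1, at 77.7 ± 36.6 FPKM, beside 36.6 ± 7.03 FPKM of Nampt and 4.03 ± 1.26 FPKM of Cd38. Untreated splenic M-MDSC held all of these at lower levels, led by Nampt at 15.4 ± 2.72 FPKM and Bst1 at 13.4 ± 7.97 FPKM. In untreated tumor M-MDSC, Nampt (42.4 ± 9.69 FPKM) and Adora2b (34.1 ± 14.8 FPKM) led. Nt5e was the lowest of the 4 ectoenzymes in each of the 8 MDSC groups, at 0.0226 to 7.63 FPKM. In bulk tumor it ranked second to Nampt, with 6.41 ± 1.82 FPKM against 11.2 ± 1.02 FPKM.

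**Figure D1:**
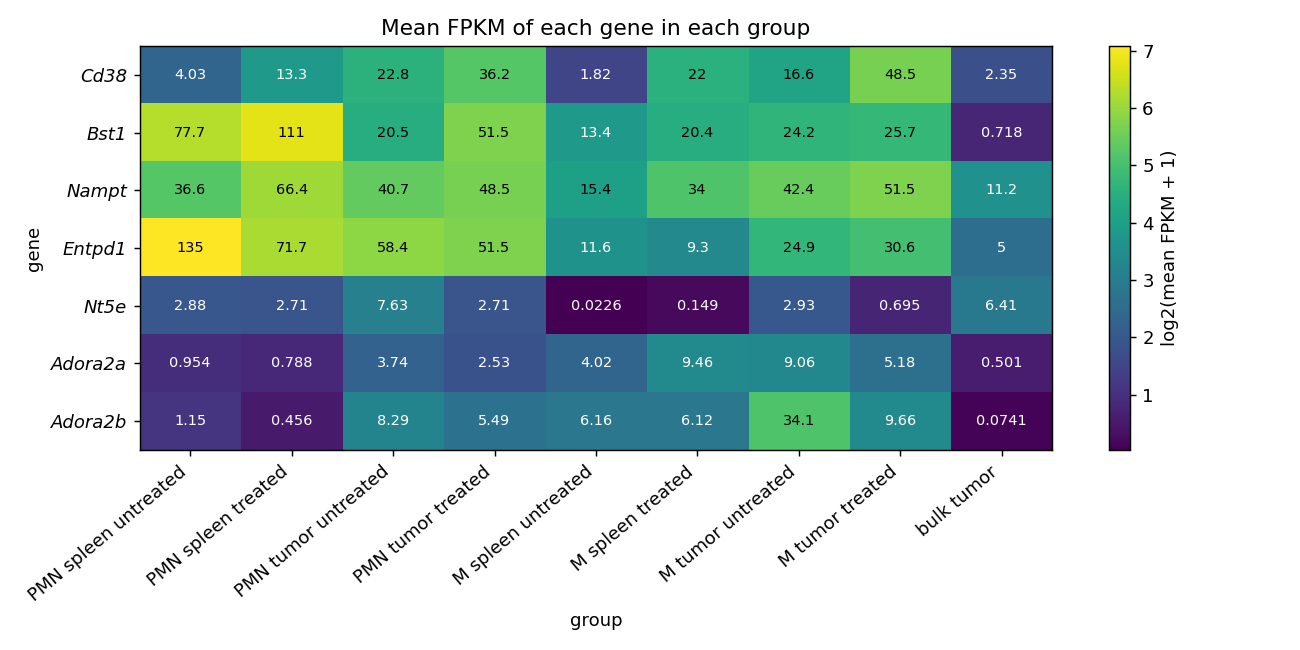
Mean FPKM of the 7 genes (rows) in the 9 groups (columns), with colour on a log2(mean FPKM + 1) scale and the mean printed in each cell. Entpd1 was at 135 FPKM in untreated splenic PMN-MDSC and 11.6 in untreated splenic M-MDSC, and Adora2b was at 34.1 in untreated tumor M-MDSC.

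Between 0 and 3 of the genes were called in a treatment comparison. A gene was called at an adjusted p under 0.05 in edgeR's quasi-likelihood test, with p-values adjusted over all genes that averaged at least 25 counts. In M-MDSC from spleen, 3 of 6 genes tested rose, where 19.6% of all 8827 genes tested were called. In M-MDSC from tumor, 1 of 7 rose and 1 fell, where 2.88% of 8360 genes were called. In PMN-MDSC from tumor, 1 of 6 fell, where 3.36% of 8308 genes were called. In PMN-MDSC from spleen, 0 of 5 were called by edgeR, where 11.6% of 7261 genes were called. There, 3 of the 5 had an unadjusted p under 0.05, and DESeq2 called 1. Treated and untreated libraries did not overlap for 12.1% to 26.7% of all genes tested, as given with the markers. These shares stand beside every gene said to be apart with treatment below. Averaged over its libraries, the lower group alone was under the count minimum for Cd38 in splenic M-MDSC (86 counts in 4 untreated libraries) and Nt5e in tumor M-MDSC (58 counts in 3 treated libraries), which therefore entered the test through the higher group.

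**Figure D2:**
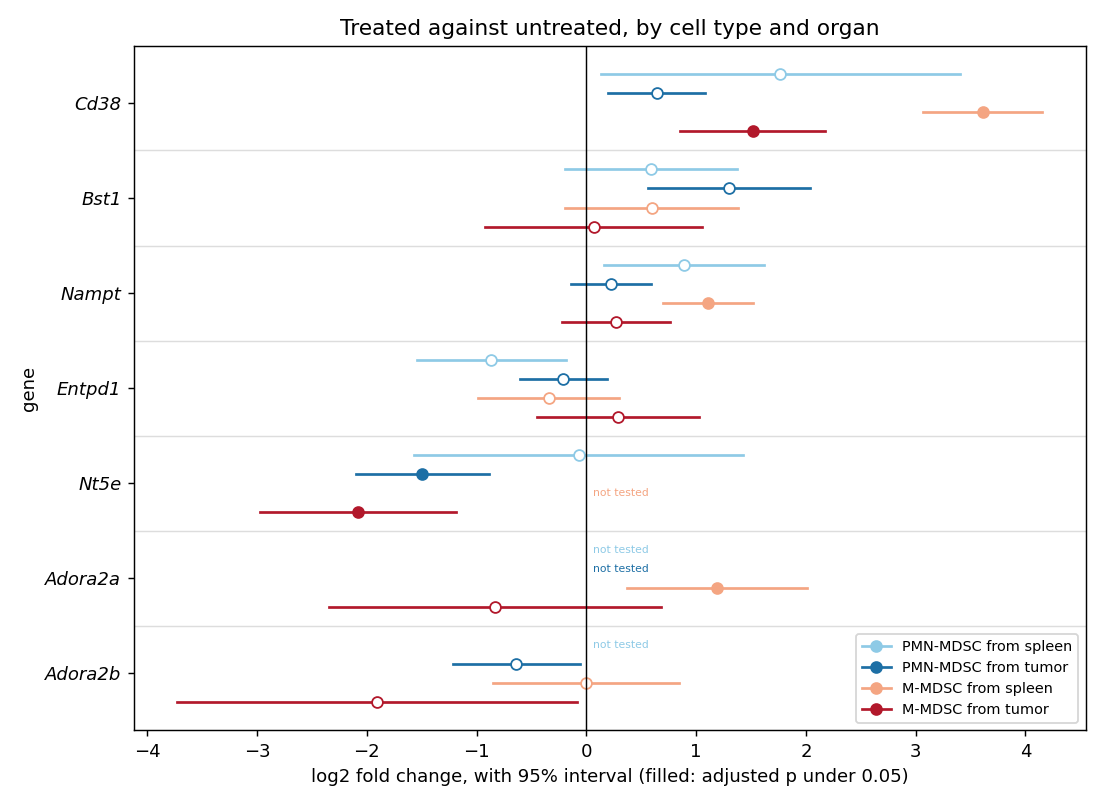
Treated against untreated, one row per gene and one color per cell type and organ. Points are log2 fold changes from edgeR, lines their 95% intervals, and filled points passed an adjusted p under 0.05. Cd38 stood at 3.61 in splenic M-MDSC and 1.52 in tumor M-MDSC, and Nt5e at -1.49 and -2.08 in tumor PMN-MDSC and tumor M-MDSC.

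More of them differed between organs and between cell types, where the share of all genes called was mostly larger as well. In untreated PMN-MDSC, 4 of 5 genes tested differed between tumor and spleen, 2 higher and 2 lower in tumor, where 59.1% of 7971 genes were called. In untreated M-MDSC, 6 of 7 were higher in tumor and none was lower, where 28.4% of 8298 genes were called, 1302 of them higher. Between the cell types, all 5 genes tested in untreated spleen were lower in M-MDSC than in PMN-MDSC, where 64.4% of 8579 genes were called. In untreated tumor, 4 of 7 differed, 2 in each direction, where 13% of 7623 genes were called. Libraries of the 2 organs were apart for 55.1% of all genes in PMN-MDSC and 31.2% in M-MDSC. Libraries of the cell types were apart for 59.2% in spleen and 19.7% in tumor. Cd38 and Nt5e with splenic M-MDSC and Adora2a with tumor PMN-MDSC entered these tests through the group where they were higher. Macrophage markers differed between organs in both cell types. In untreated M-MDSC they stood at 343 to 454 CPM in spleen and 1745 to 2363 CPM in tumor. In untreated tumor PMN-MDSC they were higher than in tumor M-MDSC, at 3361 to 4164 CPM. Neutrophil markers differed between organs in PMN-MDSC as given above. The part of these markers in the differences between organs and between cell types was not tested. The comparisons of untreated libraries share groups with one another and with the treatment comparisons, so they are not independent.

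**Figure D3:**
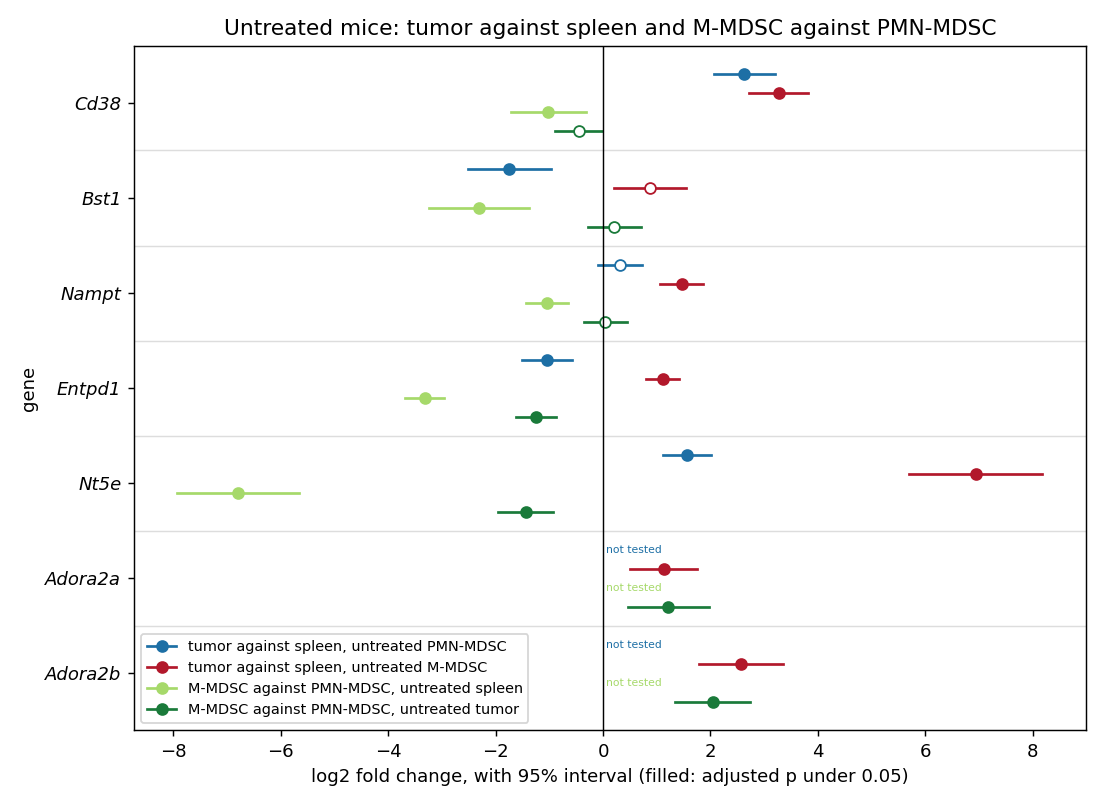
Log2 fold changes with 95% intervals in untreated mice, tumor against spleen in each cell type and M-MDSC against PMN-MDSC in each organ. Filled points passed an adjusted p under 0.05. Cd38 was higher in tumor in both cell types, at 2.63 and 3.27, and Entpd1 was at -1.04 in PMN-MDSC and 1.11 in M-MDSC. The Nt5e points that involve splenic M-MDSC rest on 2 counts there and are no measure of size.

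Cd38 was the gene that treatment raised in M-MDSC of both organs. In untreated splenic M-MDSC it stood at 4.71, 6.77, 7.43 and 9.43 CPM, and in treated ones at 69.2, 73.4, 91.2 and 109 CPM. Every treated library lay far above every untreated one, and the rise was called under all 12 alternative fits. Library 4, the one rich in B cell markers, held the highest value, and without it the log2 fold change was 3.49. Other markers differed between the same groups. Without and with treatment, 6 erythroid markers summed to 23.96 to 47.8 and 0.606 to 2.69 CPM, with 2 genes at 0 in treated libraries. The 6 endothelial markers summed to 23.35 to 32.2 and 111.5 to 269 CPM, with 2 genes at 0 in each group. Kdr alone averaged 136 CPM of that sum in treated libraries, so the endothelial shift rested largely on Kdr. The 6 NK cell markers summed to 6.99 to 15.1 and 23.2 to 134 CPM. The part of all these markers in the Cd38 values was not tested. In untreated tumor M-MDSC the values were 43.4, 63.1, 70.2 and 82.3 CPM, and in treated ones 116, 194 and 255 CPM. Again the groups did not overlap, and Cd38 rose 2.86-fold (log2 fold change 1.52, SE 0.294, adjusted p = 0.0308). Markers of other cells were apart between these groups as well, with 96.3 to 126 CPM of dendritic cell markers in untreated and 143 to 580 CPM in treated libraries, 20.4 to 43.3 and 71.2 to 146 CPM of endothelial markers, and 4392 to 5536 and 2615 to 3592 CPM of monocyte markers. Their part in the Cd38 values was not tested.

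The call in tumor M-MDSC was held by 6 of 11 alternative fits. It was lost without untreated library 1 (log2 fold change 1.498, adjusted p = 0.104), 2 (1.54, 0.0798), 3 (1.68, 0.077) or 4 (1.38, 0.073), or without treated library 3 (1.24, 0.129). The log2 fold change stayed between 1.24 and 1.68 in these fits. Without treated library 2, the one rich in macrophage markers, it was 1.49 with an adjusted p of 0.0341. The treatment effect of Cd38 in M-MDSC was smaller in tumor than in spleen (log2 difference -2.07, 95% interval -2.92 to -1.21, adjusted p = 0.0323), which was the 1 difference called among 6 genes, where 0.79% of 8730 genes were called. It was called in 11 of 19 alternative fits. It was lost in 1 fit over all groups (-2.10, adjusted p = 0.0735), without untreated splenic library 1 (-2.12, 0.0568), 3 (-2.06, 0.0784) or 4 (-1.88, 0.0844), without treated splenic library 3 (-2.04, 0.0672), and without untreated tumor library 1 (-2.08, 0.0811), 2 (-2.06, 0.0544) or 3 (-1.93, 0.0689). Tumor M-MDSC of untreated mice started from a level 9.64-fold above spleen (log2 3.27, SE 0.248, adjusted p = 1.9e-06).

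In PMN-MDSC, treatment gave no call for Cd38. Untreated splenic PMN-MDSC held 11.5, 14.1, 14.4 and 22.8 CPM and treated ones 6.51, 44.4 and 104.5 CPM. One treated library lay below all untreated ones, and the log2 fold change of 1.77 had a 95% interval of 0.13 to 3.40 (adjusted p = 0.153). It was 2.31 without the lowest treated library (adjusted p = 0.0213) and 0.65 without the highest (adjusted p = 0.637), and the rise was also called without the filter on low counts (adjusted p = 0.0321) and in 1 fit over all groups (adjusted p = 0.00449). Untreated splenic PMN-MDSC also held 70.4 to 190 CPM of 6 erythroid and 443 to 1276 CPM of macrophage markers, against 0.505 to 9.57 and 129 to 164 CPM in treated ones, where 2 of the 6 erythroid genes were at 0. These were 2 of the 8 lists apart in this comparison, and the part of these markers in the Cd38 values was not tested. Untreated tumor PMN-MDSC held 71.8, 78.1, 99.75 and 105 CPM and treated ones 108, 123, 152 and 182 CPM. The 2 groups were just apart, yet the log2 fold change of 0.64 (95% interval 0.19 to 1.08) did not pass (adjusted p = 0.129, and 0.0442 without the filter on low counts). Without treatment, Cd38 was 6.21-fold higher in tumor than in spleen PMN-MDSC (log2 2.63, SE 0.258, adjusted p = 2.4e-05). In untreated spleen it was lower in M-MDSC than in PMN-MDSC (log2 -1.02, SE 0.316, adjusted p = 0.0175), a call lost without M-MDSC library 4 (-0.80, adjusted p = 0.0643), and in untreated tumor the difference was -0.45 (95% interval -0.90 to -0.01, adjusted p = 0.172).

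Differences in treatment effect between cell types were not called for any of the 7 genes that could be tested. In spleen, M-MDSC minus PMN-MDSC gave 0 of 5 calls by edgeR and 0 by DESeq2, with 1 unadjusted p under 0.05, where 10.9% of 8417 genes were called. For Cd38 the difference was 1.76 with a 95% interval of 0.07 to 3.44 (adjusted p = 0.165), and it was called in 3 of 19 alternative fits, namely without the filter on low counts (1.81, adjusted p = 3.3e-04), in 1 fit over all groups (1.90, 0.0379) and without treated splenic PMN-MDSC library 3 (2.87, 0.0318). In tumor it was 0 of 7 calls by edgeR and 0 by DESeq2, with 1 unadjusted p under 0.05, where 0.0239% of 8385 genes were called. In PMN-MDSC, tumor minus spleen gave 0 of 5 calls by both tools and none with an unadjusted p under 0.05, where 3.5% of 8047 genes were called and the median gene stood at 0.11.

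**Figure D4:**
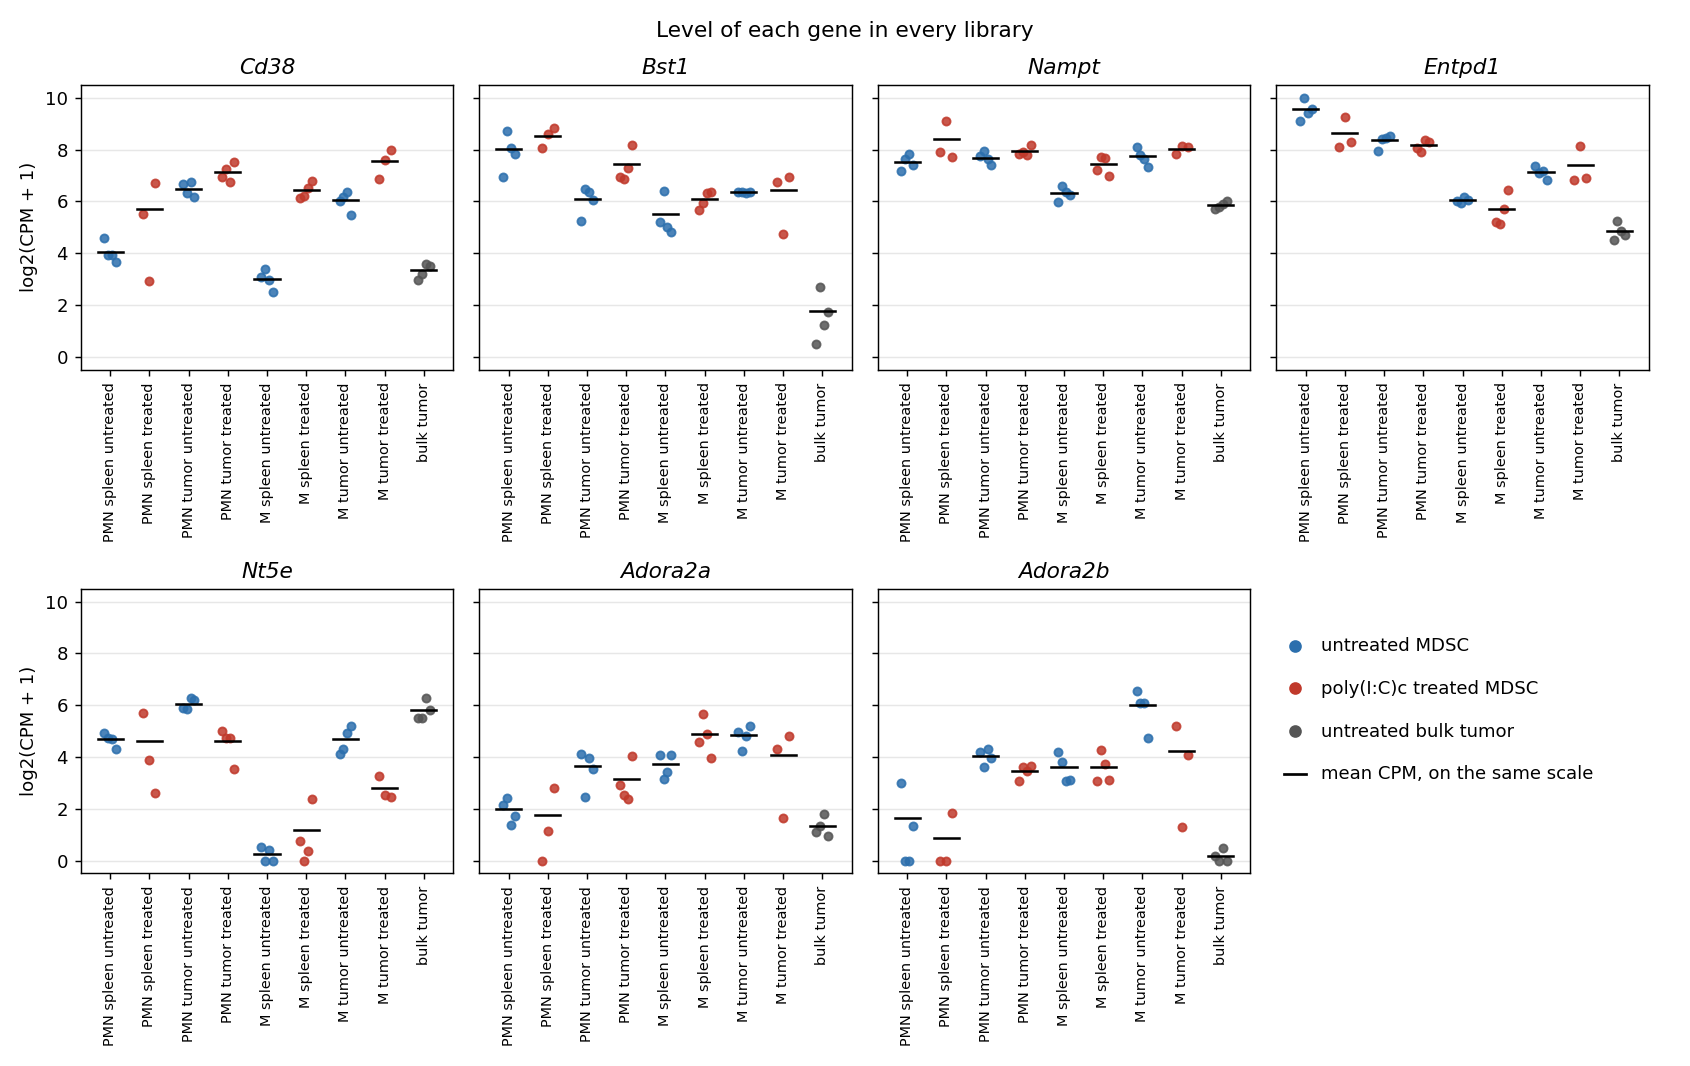
Every library as a point, with log2(CPM + 1) on the vertical axis and the 9 groups along the horizontal axis, one panel per gene. Black bars mark the mean CPM on the same scale. Cd38 was lowest in untreated splenic M-MDSC (7.09 CPM on average), Nt5e was lowest there too (0.194 CPM), and Bst1 and Adora2b were lowest in bulk tumor (2.38 and 0.137 CPM).

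Bst1 lies 24566 bases upstream of Cd38 on chromosome 5. Its transcripts were most frequent in splenic PMN-MDSC, with 123, 225, 267 and 415 CPM in untreated and 264, 389 and 451 CPM in treated libraries. Untreated tumor PMN-MDSC held 37.0, 65.1, 80.4 and 89.1 CPM, below every splenic library, and the level was 3.35-fold lower in tumor (log2 -1.74, SE 0.353, adjusted p = 0.00177). Cd38 differed the other way in the same comparison, whereas both were lower in M-MDSC than in PMN-MDSC of the untreated spleen. Treated tumor PMN-MDSC held 116, 121, 155 and 292 CPM, all above the untreated ones, and the log2 fold change of 1.30 narrowly missed the threshold (95% interval 0.56 to 2.03, adjusted p = 0.0669), which it passed with DESeq2 (adjusted p = 0.0062) and without the filter on low counts (1.1e-07). The treated library with the highest Bst1 also held the most neutrophil markers, 9414 CPM against 3022 to 6139 CPM in the other 3 libraries, and the part of these markers was not tested.

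In splenic M-MDSC, Bst1 stood at 26.9, 31.5, 35.4 and 83.7 CPM without and 49.7, 60.1, 79.4 and 81.0 CPM with treatment. One untreated library lay above all treated ones, and without it the rise was called (log2 1.07, adjusted p = 0.00989, against 0.59 and 0.273 with it). Untreated tumor M-MDSC were tightly grouped at 78.6, 80.4, 80.7 and 81.1 CPM. Treated ones held 25.7, 107 and 123 CPM, and the lowest was library 2, the one rich in macrophage markers. With that library the log2 fold change was 0.07 and without it 0.51 (adjusted p = 0.954 and 0.142). Against untreated spleen, untreated tumor M-MDSC stood 0.88 higher on the log2 scale (95% interval 0.20 to 1.55, adjusted p = 0.0527). This passed with DESeq2 (0.0333), without the filter on low counts (4.4e-05) and without untreated splenic library 2 (1.36, adjusted p = 8.2e-05). Without treatment, Bst1 was 4.97-fold lower in splenic M-MDSC than in splenic PMN-MDSC (log2 -2.31, SE 0.416, adjusted p = 0.00102), and in tumor the difference between them was not called (log2 0.21, 95% interval -0.27 to 0.70, adjusted p = 0.597).

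Nampt, the salvage enzyme, rose with treatment in splenic M-MDSC. Untreated libraries held 61.6, 74.8, 81.3 and 94.7 CPM and treated ones 126, 148, 206 and 208 CPM. The groups were apart, and the rise of 2.15-fold (log2 1.11, SE 0.184, adjusted p = 0.00298) was called under all 12 alternative fits. It was 1.25 on the log2 scale without the library rich in B cell markers. In untreated tumor M-MDSC, Nampt already stood at 160, 198, 222.5 and 276.5 CPM, 2.76-fold above spleen (log2 1.46, SE 0.183, adjusted p = 9.8e-05), and treated tumor M-MDSC at 224, 274 and 283 CPM overlapped with them (log2 0.27, adjusted p = 0.559).

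In PMN-MDSC no difference in Nampt between organs was called. Untreated splenic libraries were at 144, 170, 199.8 and 226 CPM and untreated tumor libraries at 168, 197, 214 and 244 CPM, which overlapped (log2 0.32, 95% interval -0.09 to 0.73, adjusted p = 0.16). Treated splenic libraries held 212, 238 and 556 CPM, and the log2 fold change was 0.89 (95% interval 0.16 to 1.62, adjusted p = 0.112), which was called without the filter on low counts (adjusted p = 0.0146) and in 1 fit over all groups (0.0107). Treated tumor libraries held 223.5, 228, 241 and 288 CPM, again overlapping with untreated ones. Without treatment, Nampt was 2.06-fold lower in M-MDSC than in PMN-MDSC of the spleen (log2 -1.05, SE 0.176, adjusted p = 7.0e-04), and in tumor the difference was 0.04 with an interval of -0.36 to 0.44. Gdap10, which lies on the same strand within the span of Nampt, can share its reads.

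Entpd1, the first enzyme of the adenosine branch, was higher in PMN-MDSC than in M-MDSC of untreated mice in both organs. Untreated splenic PMN-MDSC held 547, 672, 768 and 1021 CPM and untreated splenic M-MDSC 59.7, 63.0, 64.8 and 71.5 CPM. The groups were 10.0-fold apart (log2 -3.32, SE 0.166, adjusted p = 1.0e-06). In tumor, PMN-MDSC held 243, 338, 349.8 and 372 CPM and M-MDSC 112, 136, 141.5 and 165 CPM. Entpd1 was thus lower in tumor than in spleen in PMN-MDSC (log2 -1.04, SE 0.213, adjusted p = 0.00189) and higher in tumor in M-MDSC (log2 1.11, SE 0.142, adjusted p = 1.2e-04). The gap between the cell types was 2.37-fold in tumor (log2 -1.25, SE 0.172, adjusted p = 5.6e-04), and the difference between the gaps was not tested.

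Treatment gave no call for Entpd1. Treated splenic PMN-MDSC held 276.5, 312 and 611 CPM, and one library lay within the untreated range (log2 -0.87, 95% interval -1.55 to -0.19, adjusted p = 0.0974). DESeq2 called this fall (adjusted p = 0.0378), as did edgeR without the filter on low counts (0.0298) and in 1 fit over all groups (0.034). Without treated library 2, which held the highest Entpd1, edgeR called it too (log2 -1.24, adjusted p = 0.032). In treated splenic M-MDSC the values were 34.0, 35.9, 50.9 and 86.7 CPM, and the highest was library 4, the one rich in B cell markers. Of these libraries, 3 lay below all untreated ones. With all 4 the log2 fold change was -0.34 (adjusted p = 0.439), and without library 4 it was -0.70 and called (adjusted p = 0.0132). Treated tumor PMN-MDSC held 240, 266, 310 and 332 CPM, within the untreated spread or near it (log2 -0.21, adjusted p = 0.587). Treated tumor M-MDSC held 113, 118 and 281 CPM, the highest being library 2, and the log2 fold change was 0.29 with it and -0.28 without it, neither called.

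Nt5e, which makes adenosine from AMP, fell with treatment in both cell types of the tumor. Untreated tumor PMN-MDSC held 57.0, 58.1, 71.8 and 75.7 CPM and treated ones 10.7, 25.3, 25.9 and 31.3 CPM. All treated libraries lay below all untreated ones, and the level was 2.82-fold lower (log2 -1.49, SE 0.275, adjusted p = 0.0137). Untreated tumor M-MDSC held 16.3, 19.03, 29.6 and 35.75 CPM and treated ones 4.43, 4.81 and 8.70 CPM. These groups were apart as well, with a 4.23-fold lower level (log2 -2.08, SE 0.396, adjusted p = 0.0305). No difference in the change was called between the cell types (difference -0.58, 95% interval -1.58 to 0.42, adjusted p = 0.771).

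Both calls were near the threshold. In PMN-MDSC the call held under 9 of 12 alternative fits and was lost without untreated library 3 (log2 -1.42, adjusted p = 0.0601) or 4 (-1.46, 0.0507), and in 1 fit over all groups (-1.48, 0.0701). In M-MDSC it held under 6 of 10, being lost without untreated library 1 (-2.25, 0.0624), 2 (-2.20, 0.0573) or 4 (-1.91, 0.062) or treated library 3 (-1.92, 0.132), and was -1.93 without treated library 2 (adjusted p = 0.0481). Epithelial markers, 6 in number and led by Krt8, summed to 123 to 740 CPM in untreated and 79.1 to 175 CPM in treated tumor PMN-MDSC, and to 101 to 323 and 69.5 to 97.3 CPM in tumor M-MDSC. In bulk tumor these markers summed to 4418 to 6523 CPM, while Nt5e stood at 43.9, 44.3, 55.0 and 77.4 CPM. The ranges of bulk tumor and untreated tumor PMN-MDSC overlapped (log2 bulk against PMN-MDSC -0.47, 95% interval -0.92 to -0.02, adjusted p = 0.0615), and the difference was called without bulk library 3 (-0.64, adjusted p = 0.0142). The part of epithelial transcripts in the Nt5e values was not tested, nor was that of the other lists apart in these comparisons, such as B cell and dendritic cell markers in tumor PMN-MDSC and dendritic cell and monocyte markers in tumor M-MDSC. In untreated tumor, Nt5e was lower in M-MDSC than in PMN-MDSC (log2 -1.44, SE 0.237, adjusted p = 0.00168), and the call was lost in 1 fit over all groups (adjusted p = 0.0596).

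In the spleen, Nt5e separated the cell types. Untreated PMN-MDSC held 18.8, 24.95, 25.9 and 29.4 CPM, whereas untreated M-MDSC held 2 counts in 4 libraries together, 0 CPM in 2 libraries and 0.339 and 0.437 CPM in the others. The pooled ratio of PMN-MDSC to M-MDSC was 112 with a 95% interval of 30.7 to 931, which covers counting error only. Tumor M-MDSC exceeded splenic M-MDSC by a pooled ratio of 138.5 (37.9 to 1152). Treated splenic M-MDSC held 0, 0.303, 0.672 and 4.16 CPM, and 11 of the 14 counts came from library 4, the one rich in B cell markers. Treated splenic PMN-MDSC held 5.05, 13.6 and 51.3 CPM, which lay on both sides of the untreated range (log2 -0.07, 95% interval -1.57 to 1.43, adjusted p = 0.961). In untreated PMN-MDSC, Nt5e was 2.95-fold higher in tumor than in spleen (log2 1.56, SE 0.2, adjusted p = 1.0e-04).

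The adenosine receptor genes Adora2a and Adora2b were most frequent in M-MDSC. In untreated tumor M-MDSC, Adora2b stood at 25.5, 67.1, 67.6 and 91.4 CPM against 7.45, 7.53, 13.0 and 17.5 CPM in splenic M-MDSC. The groups were apart, and the level was 5.93-fold higher in tumor (log2 2.57, SE 0.36, adjusted p = 2.5e-04). Tumor PMN-MDSC held 11.1, 14.3, 17.02 and 18.7 CPM, and the level was 4.11-fold higher in tumor M-MDSC (log2 2.04, SE 0.319, adjusted p = 0.00135). Adora2a followed with smaller steps. It held 17.7, 26.99, 30.5 and 35.75 CPM in tumor and 7.86, 9.82, 15.7 and 15.8 CPM in splenic M-MDSC (log2 1.13, SE 0.286, adjusted p = 0.0112, and 0.129 in 1 fit over all groups), and 4.43, 10.5, 14.4 and 16.4 CPM in tumor PMN-MDSC (log2 M-MDSC against PMN-MDSC 1.22, SE 0.352, adjusted p = 0.0369). The second of these calls on Adora2a held in 5 of 12 alternative fits, with adjusted p from 0.00125 to 0.154. It was lost without any 1 of tumor PMN-MDSC libraries 2 (0.0783), 3 (0.0626) and 4 (0.105) and tumor M-MDSC libraries 1 (0.0891), 3 (0.0755) and 4 (0.0526).

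In splenic PMN-MDSC both receptors were too low to test. Adora2a held 1.61, 2.30, 3.46 and 4.31 CPM in untreated and 0, 1.18 and 6.06 CPM in treated libraries. Adora2b was at 0 in 2 untreated libraries and at 1.53 and 6.92 CPM in the others, and at 0 in 2 of 3 treated libraries, where the third held 2.53 CPM. A count of 0 allows up to 3 counts, which is 2.61 and 1.78 CPM in the treated libraries 1 and 2 and 2.16 and 1.21 CPM in the untreated libraries 2 and 3, from counting error only. In the fit without a filter on low counts, both genes were higher in tumor than in spleen PMN-MDSC, with log2 fold changes of 2.62 for Adora2b (adjusted p = 5.3e-08) and 2.06 for Adora2a (adjusted p = 1.1e-04). In the same fit both were higher in M-MDSC than in PMN-MDSC of the spleen, Adora2b by 2.23 (adjusted p = 9.7e-06) and Adora2a by 2.27 (adjusted p = 8.8e-08) on the log2 scale. Untreated splenic PMN-MDSC held 28 counts of each gene in 4 libraries, and 24 of those of Adora2b came from a single library. These fold changes rest on the higher groups and are no measure of size.

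Adora2a rose with treatment in splenic M-MDSC, in a call that most alternative fits lost. Treated libraries held 14.8, 23.2, 28.2 and 49.7 CPM, and the lowest of them lay within the untreated range. The log2 fold change was 1.19 (SE 0.364, adjusted p = 0.0475), and 3 of 12 alternative fits kept the call, with adjusted p from 0.0128 to 0.129. It was lost without any 1 library except treated library 4, the one rich in B cell markers, without which it was 1.43 (adjusted p = 0.0148). The adjusted p was 0.074, 0.119, 0.126 and 0.0753 without untreated libraries 1 to 4, and 0.0641, 0.107 and 0.0784 without treated libraries 1 to 3. Adora2b in treated splenic M-MDSC, at 7.39, 7.57, 12.1 and 18.1 CPM, lay close to the untreated range of 7.45 to 17.5 CPM (log2 -0.0042, 95% interval -0.85 to 0.84, adjusted p = 0.996).

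In tumors of treated mice both receptors were on average lower, without a call. Adora2b held 1.46, 16 and 36.0 CPM in treated tumor M-MDSC, and its log2 fold change of -1.91 had a 95% interval of -3.73 to -0.09 (adjusted p = 0.239). Adora2a held 2.09, 18.6 and 26.9 CPM there (log2 -0.83, 95% interval -2.35 to 0.68, adjusted p = 0.554). The lowest value of both genes came from library 2, the one rich in macrophage markers, and without it the log2 fold changes were -1.32 (adjusted p = 0.16) and -0.27 (0.735). In tumor PMN-MDSC, Adora2b held 7.46, 10.1, 11.2 and 11.7 CPM with treatment (log2 -0.64, adjusted p = 0.232), and Adora2a held 4.14, 4.80, 6.47 and 15.6 CPM, too low to test. One untreated Adora2b library overlapped with the treated ones.

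All genes tested except Nt5e were lower in bulk tumor than in the sorted tumor cells. Compared with tumor M-MDSC, 6 of 7 genes were lower in bulk tumor and Nt5e was 2.04-fold higher (log2 1.03, SE 0.276, adjusted p = 0.00591), where 69.2% of 11022 genes were called and the median gene was at 0.17. Bst1, Adora2a and Adora2b were under the count minimum in bulk tumor itself and entered through the sorted cells. Compared with tumor PMN-MDSC, 4 of 5 genes tested were lower, where 69.5% of 11138 genes were called. Bulk tumor held 6.885, 8.26, 10.45 and 10.95 CPM of Cd38, 11.2-fold less than tumor PMN-MDSC (log2 -3.48, SE 0.216, adjusted p = 6.8e-08) and 7.87-fold less than tumor M-MDSC (log2 -2.98, SE 0.264, adjusted p = 1.6e-06). Bst1 was at 0.390, 1.355, 2.36 and 5.42 CPM, 37.6-fold less than in tumor PMN-MDSC (log2 -5.23, SE 0.55, adjusted p = 1.5e-05).

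Entpd1 in bulk tumor stood at 21.9, 24.7, 28.1 and 36.9 CPM, 13.7-fold below tumor PMN-MDSC (log2 -3.78, SE 0.21, adjusted p = 3.0e-08) and 5.53-fold below tumor M-MDSC. Nampt, an enzyme that most cells use, was the least depleted of the called genes, at 51.0, 54.5, 58.3 and 63.0 CPM (log2 -2.08 against PMN-MDSC and -2.05 against M-MDSC). Adora2a held 0.922, 1.17, 1.55 and 2.50 CPM. Adora2b had 5 counts in 4 bulk libraries, so that the pooled ratio of tumor M-MDSC to bulk tumor was 411 with an interval of 175 to 1272 from counting error.

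The order of the 9 groups differed from gene to gene. Cd38 ran from treated tumor M-MDSC (188.5 ± 69.5 CPM, n = 3) through treated tumor PMN-MDSC (141 ± 32.9 CPM, n = 4) down to bulk tumor (9.14 ± 1.90 CPM) and untreated splenic M-MDSC (7.09 ± 1.95 CPM), whose ranges overlapped. Among neighbours in that order, treated and untreated tumor PMN-MDSC were apart, as were untreated splenic PMN-MDSC and bulk tumor, and the other neighbours overlapped. Bst1 and Nampt were highest on average in treated splenic PMN-MDSC (368 ± 95 and 335 ± 192 CPM, n = 3) and Entpd1 in untreated splenic PMN-MDSC (752 ± 200.5 CPM, n = 4), each overlapping with the next group. For Nt5e, untreated tumor PMN-MDSC (65.7 ± 9.50 CPM) and bulk tumor (55.1 ± 15.7 CPM) led and overlapped, and bulk tumor was apart from untreated tumor M-MDSC (25.2 ± 9.08 CPM). Adora2a was highest in treated splenic M-MDSC (28.96 ± 14.9 CPM) and Adora2b in untreated tumor M-MDSC (62.9 ± 27.4 CPM), each overlapping with the next.

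In the wider NAD pathway, between 0 and 2 genes were called in a treatment comparison. Of 16 genes of NAD salvage and synthesis, 4 to 7 could be tested in a treatment comparison. In this and the other lists, some genes reached the count minimum through the higher group alone. Among those named, these were Kmo with treated PMN-MDSC (6 counts in 3 splenic and 45 counts in 4 tumor libraries), Dpp4 with treated splenic PMN-MDSC (15 counts in 3 libraries), P2ry14 with untreated M-MDSC and untreated splenic PMN-MDSC, Haao and Entpd5 with tumor PMN-MDSC, Nadk2 with tumor M-MDSC, and Enpp1 with tumor M-MDSC. In splenic PMN-MDSC, 1 of 6 tested rose and 1 fell (11.6% of all genes called), namely Pnp, a purine nucleoside phosphorylase (log2 1.47, adjusted p = 0.0471), and Kmo, a kynurenine hydroxylase on the way from tryptophan to NAD (log2 -3.95, adjusted p = 0.00808). The call on Pnp was lost without untreated library 1, 2 or 4 or treated library 2 or 3 (log2 1.06 to 1.60, adjusted p 0.061 to 0.189), and that on Kmo was kept in all 10 alternatives that tested it. The marker differences between treated and untreated splenic PMN-MDSC given above go with these changes as well, and their part was not tested. Kmo fell in tumor PMN-MDSC too (log2 -2.42, adjusted p = 0.00332), as the 1 gene called of 4 tested (3.36% of all genes). In splenic M-MDSC edgeR called 0 of 7 and DESeq2 0, with 5 at an unadjusted p under 0.05. In tumor M-MDSC edgeR called 0 of 4 and DESeq2 1, with 3 at an unadjusted p under 0.05. Between tumor and spleen of untreated mice, 5 of 6 were called in PMN-MDSC (59.1% of all genes), 4 of them lower in tumor, among them Haao (log2 -2.49), the NAD kinase Nadk (log2 -2.28) and the mitochondrial NAD kinase Nadk2 (log2 -0.997). In M-MDSC, Nadk (log2 -1.23) and Nadk2 (log2 -1.03) were lower as well, 2 of 5 tested (28.4% of all genes). The median log2 fold change of the tested list genes was -1.04 for PMN-MDSC and -0.29 for M-MDSC. Over all genes tested it was 0.01 and 0.02.

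Other NAD-consuming enzymes and the ADP-ribose channel Trpm2 were mostly too low to test, with 4 or 5 of 15 genes passing the count minimum in each MDSC comparison. Trpm2, which ADP-ribose opens, rose in treated tumor M-MDSC (log2 1.92, adjusted p = 0.0461). That call was lost without any 1 untreated library or without treated library 2 or 3 (log2 1.41 to 2.23, adjusted p 0.0537 to 0.129). In the other 3 treatment comparisons edgeR called 0 of 4 in splenic PMN-MDSC (2 at an unadjusted p under 0.05, DESeq2 1), 0 of 4 in tumor PMN-MDSC (1 and 1) and 0 of 5 in splenic M-MDSC (3 and 1). Against splenic PMN-MDSC, Trpm2 was lower in untreated splenic M-MDSC (log2 -5.03, adjusted p = 2.4e-06) and in tumor PMN-MDSC (log2 -2.74, adjusted p = 2.1e-05). Sirt7, a nuclear NAD-dependent deacylase, was lower in tumor in both cell types (log2 -1.20 and -0.79).

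Of 12 further enzymes of nucleotide hydrolysis, treatment raised Entpd7 in splenic M-MDSC (log2 0.72, adjusted p = 0.0086). Without library 4, the one rich in B cell markers, it was 0.77 (adjusted p = 0.0115). In splenic PMN-MDSC edgeR called 0 of 4 (2 at an unadjusted p under 0.05, DESeq2 2). It called 0 of 6 in tumor PMN-MDSC and 0 of 3 in tumor M-MDSC (in both, 0 at an unadjusted p under 0.05 and 0 by DESeq2). Entpd3, a relative of CD39, stood at 15.3 to 64.0 CPM in untreated splenic PMN-MDSC, with 332 counts, and at 0 counts in all 4 untreated splenic M-MDSC libraries. In untreated tumor it stood at 11.15 to 45.4 CPM in PMN-MDSC, with 244 counts, and at 0 to 2.625 CPM in M-MDSC, with 8 counts. Entpd3 entered both tests through PMN-MDSC alone. Acpp, a phosphatase that can also make adenosine from AMP, was lower in tumor than in spleen in PMN-MDSC (log2 -2.66), as was Entpd5 (log2 -1.40). Enpp1 (CD203a), the partner of CD38 on the route from NAD to AMP, was higher in bulk tumor than in tumor PMN-MDSC (log2 2.63, adjusted p = 1.2e-06) and tumor M-MDSC (log2 3.70, adjusted p = 1.3e-07).

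Among 12 genes of adenosine reception, transport and breakdown, the nucleoside transporter Slc28a2 rose with treatment in all 4 comparisons. Its log2 fold change was 1.75 in splenic PMN-MDSC (adjusted p = 0.0201), 1.66 in tumor PMN-MDSC (0.0284), 1.75 in splenic M-MDSC (6.6e-04) and 1.99 in tumor M-MDSC (0.0308). Without treated library 4, Slc28a2 was at 1.79 in splenic M-MDSC, and without treated library 2 at 2.21 in tumor M-MDSC, both called. In splenic M-MDSC it stood at 37.6 to 68.3 CPM without and 119.5 to 197.6 CPM with treatment, and the call was kept in all 12 alternatives. It was lost in splenic PMN-MDSC without untreated library 1, 3 or 4 or treated library 3 (adjusted p 0.0505 to 0.0778), in tumor PMN-MDSC without untreated library 1, 2 or 3 (0.0831 to 0.098), and in tumor M-MDSC without any 1 untreated library or without treated library 3 (0.0518 to 0.121). It was the one gene called in each, besides Dpp4 (CD26), the adenosine deaminase-binding peptidase, which fell in splenic PMN-MDSC (log2 -3.01, adjusted p = 0.018), but not without untreated library 4 (adjusted p = 0.0511) or treated library 3 (0.077). Dendritic cell markers, led by Itgax, summed to 304 to 454 CPM in untreated and 11.1 to 95.3 CPM in treated splenic PMN-MDSC, where 3 of the 7 were at 0. Their part and that of the erythroid and macrophage markers in the Dpp4 values was not tested. Of the equilibrative transporters, Slc29a3 was higher in untreated tumor than splenic PMN-MDSC (log2 1.57, adjusted p = 7.9e-05), and so was Slc29a1 (log2 1.42, adjusted p = 0.0139). Dpp4 was lower in tumor than in splenic M-MDSC (log2 -1.79, adjusted p = 2.2e-04).

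The last list held receptors for extracellular ATP and related nucleotides. Of 16 genes of ATP release and P2 receptors, 6 of 8 tested were called in treated splenic M-MDSC, 4 higher and 2 lower, where 19.6% of all genes were called. Their median log2 fold change over the 8 tested was 0.43, against -0.01 for all genes. P2ry14, the receptor for UDP-glucose, rose by 3.26 on the log2 scale (adjusted p = 9.4e-05) and P2ry13, an ADP receptor, by 2.93 (5.2e-05), whereas P2ry6, a UDP receptor, fell (log2 -1.78, adjusted p = 0.00102). Without library 4, the one rich in B cell markers, the values were 3.18, 2.94 and -1.62, all called. The erythroid, endothelial and NK cell markers given with Cd38 were apart between these groups too, and their part was not tested. In tumor M-MDSC, P2ry14 (log2 2.66, adjusted p = 0.0103) and P2ry13 (log2 2.22, adjusted p = 0.0199) rose, 2 of 7 tested, where 2.88% of all genes were called. Without treated library 2, the one rich in macrophage markers, the values were 2.63 and 2.26, both called. The marker sums that were apart between these tumor libraries, given with Cd38, go with this rise too, and their part was not tested. The call on P2ry14 there was lost without untreated library 3 (adjusted p = 0.0523) or treated library 3 (0.0531), and that on P2ry13 without untreated library 1, 2 or 3 or treated library 3 (0.0518 to 0.093). In PMN-MDSC edgeR called 0 of 4 in spleen (0 at an unadjusted p under 0.05, DESeq2 0) and 0 of 7 in tumor (1 and 1). The treatment effect on P2ry14 was larger in M-MDSC than in PMN-MDSC in the spleen (log2 difference 4.30, adjusted p = 0.00204), a call kept in all 19 alternatives. Between tumor and spleen of untreated mice, 6 of 7 were called in PMN-MDSC (59.1% of all genes), 5 of them higher in tumor with P2ry14 (log2 2.69), the ATP-gated channels P2rx7 (log2 3.39) and P2rx4 (log2 1.87) first, and 4 of 7 in M-MDSC (28.4% of all genes), 3 of them higher.

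For scale, 10 interferon-stimulated reference genes were followed in the same fits. Of these, 8 rose in splenic PMN-MDSC, 8 in tumor PMN-MDSC, 10 in splenic M-MDSC and 4 in tumor M-MDSC, and none fell. DESeq2 called 9, 8, 10 and 8 of them. Their median log2 fold changes were 3.43, 2.60, 3.46 and 2.18. In splenic M-MDSC the Cd38 change of 3.61 lay beside Usp18 (3.30), Ifit1 (4.27) and Rsad2 (4.40). Without treated library 4, Usp18, Ifit1 and Rsad2 stood at 3.44, 4.41 and 4.55. In tumor M-MDSC, Cd38 stood at 1.52, beside Oasl2 at 1.48, Irf7 at 3.01 and Ifit3 at 3.59. Without treated library 2, Oasl2, Irf7 and Ifit3 stood at 1.76, 3.21 and 3.88. The call on Oasl2 was lost without any 1 untreated library or without treated library 3 (log2 1.24 to 1.56, adjusted p 0.0719 to 0.0985).

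Across the 30 MDSC libraries, the genes whose log2(CPM + 1) ran most like Cd38 among 8536 genes were Rgs1, a regulator of G protein signaling (r = 0.874), Rab20 (0.867) and the acute-phase gene Saa3 (0.865). Bst1 ran with Slpi (0.932), a protease inhibitor of neutrophils, Slfn2 (0.925) and Grina (0.915). Nampt ran with Sdcbp (0.930), Gdap10 (0.890), whose span overlaps its own, and Rapgef2 (0.856). Entpd1 ran with Atxn1 (0.970), the complement receptor gene C5ar2 (0.962) and Nisch (0.952), and Nt5e with Thap6 (0.903), Spty2d1 (0.902) and Cpeb2 (0.901). Adora2a ran with Nsf (0.893) and Lifr (0.885), and Adora2b with Mmp19 (0.890), Fto (0.876) and Dusp3 (0.872).

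Between the genes themselves, Adora2a and Adora2b ran most closely (r = 0.806), followed by Entpd1 and Nt5e (0.755), while Cd38 and its neighbour Bst1 stood at -0.0016. Entpd1 and Adora2a ran in opposite directions (-0.696). These coefficients describe 30 libraries that share 8 mice, cell types and organs, and differ in depth, and differences between and within groups were not separated. Cd38 overlaps Gm16014 on its own strand, Entpd1 overlaps Gm16027 and Gm8783, and reads of such pairs could be split or lost. Cd38 and Bst1 overlap Gm16015 and Fbxl5 on the other strand, from which strand-specific counting separates them.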

How the data were processed

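RNA of sorted MDSC and bulk tumor was sequenced with a stranded total RNA kit for low input, without molecular identifiers described. The deposited values are raw counts of fragments per gene, which the authors made by mapping to mm10 with ContextMap and BWA and counting by strand with featureCounts (Subread 1.4.6-p3) on Gencode v16. Columns of the count table were assigned to 9 groups by cell type, organ and treatment in their names, where the letter G was read as PMN-MDSC, and 1 library with 10 counts was left out, which left 34 of 35. Within groups, the chi-square per gene of 48 library pairs was 7.14 to 58.1, so that no pair was a copy within counting noise.

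GENCODE M21 (GRCm38) gave gene symbols, positions and the lengths of exons, and RefSeq the promoter windows. Each comparison was fitted on its own libraries (R 4.3.3, edgeR 4.0.16) with TMM scaling, genes of at least 25 counts on average, a robust quasi-likelihood F-test (two-sided) and Benjamini-Hochberg adjustment over all genes tested, at an adjusted p under 0.05. The methods of the study state DESeq2 at an adjusted p under 0.001 and a 2-fold change, which was tried as an alternative threshold, beside DESeq2 1.42.0, RLE scaling, no filter on low counts, 1 fit over all groups and leaving out each library. Standard errors follow from the fold change and the F statistic, and pooled ratios carry exact 95% intervals for counting error only. FPKM was computed from the deposited counts. PCR copies cannot be told from molecules.

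All 7 genes were named, the 3 called genes with the smallest adjusted p of each pathway list in a comparison (here for the treatment comparisons and the clearest of the others), and the 3 genes most like each of the 7 by Pearson's r, of which 1 is not reported here. Genes and lists were chosen with earlier results of these data known. Marker lists were summed. The fits were tested on simulated data for 3 comparisons: treatment in splenic PMN-MDSC, in tumor PMN-MDSC, and its difference between organs in PMN-MDSC. A log2 change of 1 was recovered for 10.98%, 40% and 5.32% of changed genes, in that order. A log2 change of 2 was recovered for 80.8%, 93.3% and 68.75%. An absent call in these comparisons therefore does not exclude a 2-fold change.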

Additional observations from a re-analysis of the deposited data

Results flagged for a closer look

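In untreated splenic M-MDSC, 1 library held 83.7 CPM of Bst1, well apart from the other 3 libraries of the group at 26.9 to 35.4 CPM. Neutrophil markers summed to 1149 to 2176 CPM over these 4 libraries. In treated splenic M-MDSC, library 4 held 4.16 CPM of Nt5e (11 counts) against 0 to 0.672 CPM in the others, and this is the library with 11780 CPM of B cell markers. Of 49 sets of 4 values screened, 2 held such a value, and the screen was set to pass about 1 in 20 by chance, a rate not measured here. The treatment effect of Cd38 in M-MDSC differed between tumor and spleen, with a log2 difference of -2.07, called by the interaction term. The cause of each was not tested.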

How the results depend on the processing

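No paired analysis was possible because the columns name no mouse, and neither column order nor the running number was used to pair libraries. Where 4 treatment comparisons are given, they are listed in the order splenic PMN-MDSC, tumor PMN-MDSC, splenic M-MDSC and tumor M-MDSC. With RLE scaling, every count of genes and of the 7 genes stayed within 1.5 times its value, all 83 fold changes kept their side of the threshold, and 82 kept their sign. The exception in sign was Adora2b in treated splenic M-MDSC, which was not called and lay near 0 (log2 -0.0042, against 0.0144 with RLE scaling, 0.0058 with DESeq2, 0.0221 without the filter on low counts and 0.0343 in 1 fit over all groups). Of the 63 mean levels, 59 moved by less than 1 SD with CPM per library total, as did all 63 medians. With DESeq2, 1354, 613 and 797 genes were called for treatment in splenic PMN-MDSC, tumor PMN-MDSC and tumor M-MDSC (844, 279 and 241 with edgeR), of the 7 genes 1 in splenic and 2 in tumor PMN-MDSC, and 501, 307 and 22 genes for the difference in treatment effect between organs in PMN-MDSC, between organs in M-MDSC and between cell types in tumor (282, 69 and 2 with edgeR).

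Without the filter on low counts, treatment gave 1818 genes in splenic PMN-MDSC, 864 in tumor PMN-MDSC and 1064 in tumor M-MDSC, with 3 of the 7 genes in each PMN-MDSC comparison. Tumor against spleen gave 3662 genes in M-MDSC, M-MDSC against PMN-MDSC 1658 in tumor, and bulk tumor against PMN-MDSC 11698. Differences in treatment effect gave 676 genes between organs in PMN-MDSC, 659 in M-MDSC with 4 of the 7 genes, and between cell types 1590 in spleen with 2 of the 7 genes and 161 in tumor. In 1 fit over all groups, treatment gave 2356 genes in splenic PMN-MDSC and 794 in tumor M-MDSC, with 3 of the 7 genes in splenic and 0 in tumor PMN-MDSC, and M-MDSC against PMN-MDSC gave 2 of the 7 genes in tumor. The differences in treatment effect were then 681 genes in PMN-MDSC, 146 in M-MDSC with 0 of the 7 genes, 1 of the 7 genes between cell types in spleen, where that of Bst1 turned to 0.0935, and 0 genes between cell types in tumor. At an adjusted p under 0.001 and a 2-fold change, the threshold of the study's methods but applied here to edgeR and not to DESeq2, treatment gave 3, 20, 218 and 1 genes, with 0 of the 7 genes in tumor PMN-MDSC, 1 in splenic M-MDSC and 0 in tumor M-MDSC. Tumor against spleen gave 1727 genes in PMN-MDSC, with 2 of the 7, and 714 in M-MDSC. M-MDSC against PMN-MDSC gave 1993 in spleen, with 3 of the 7, and 126 in tumor, with 1 of the 7. Bulk tumor gave 4469 against PMN-MDSC and 4619 against M-MDSC.

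Leaving out 1 library at a time, treatment gave 307 to 1001, 110 to 276, 1089 to 1808 and 30 to 505 genes, and 0 to 2 of the 7 genes in splenic PMN-MDSC, 0 to 1 in tumor PMN-MDSC and 0 to 2 in tumor M-MDSC. M-MDSC against PMN-MDSC in tumor gave 610 to 1234 genes. Differences in treatment effect gave 75 to 447 genes in PMN-MDSC, 7 to 250 in M-MDSC with 0 to 1 of the 7 genes, and between cell types 570 to 1414 in spleen, with 0 to 1 of the 7 genes, and 0 to 24 in tumor. Of 805 fold changes of the 7 genes refitted this way, 27 changed sign, 32 lost a call and 7 gained one. None of those that changed sign had been called: for treatment, Nt5e in splenic PMN-MDSC (log2 -1.42 to 0.38), Adora2b in splenic M-MDSC (-0.33 to 0.27), Bst1 (-0.30 to 0.51) and Entpd1 (-0.28 to 0.51) in tumor M-MDSC; for M-MDSC against PMN-MDSC in tumor, Nampt (-0.10 to 0.15); for the difference in treatment effect between cell types, Nampt (-0.12 to 0.71) and Bst1 (-0.35 to 0.41) in spleen and Adora2a (-0.87 to 0.36), Nampt (-0.076 to 0.17) and Entpd1 (-0.067 to 0.72) in tumor. The cause of these changes was not tested. Between 793070 and 4357105 counts a library, the receptors Adora2a and Adora2b were under the count minimum in the pairwise comparisons that involved splenic PMN-MDSC and in bulk tumor against tumor PMN-MDSC, Adora2a was also under it for treatment in tumor PMN-MDSC, and Nt5e was under it in the treatment comparison in splenic M-MDSC.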
